A study of Homo sapiens with 6 samples.

Results

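The genes of the proteasome were followed in MDA-MB-231, an established human line of triple-negative breast cancer, 8 h after treatment with SAHA (vorinostat), an inhibitor of histone deacetylases. The members were the genes whose symbol begins with PSM, one of the letters A to G and a digit, on probe sets that name only that gene. This gave 46 of the 18132 genes measured, each read from its brightest probe set, by the mean over 6 arrays. PrimeView arrays from Affymetrix gave the expression of 3 samples treated with 5 µM SAHA and of 3 given DMSO, the usual solvent, for the same time, all grown in medium with serum. Whether the replicates came from separate cultures is not in the labels, so each p-value below speaks for the spread among these arrays alone, part of which may be technical. In bulk RNA, fewer cells of a kind and less RNA per cell cannot be told apart. Of the 46 members, 44 are proteasome subunits, activators, an inhibitor or assembly chaperones, and 2, PSMC3IP and PSME3IP1, match by their symbols but are not proteasome subunits. PSMA6, PSMC5, PSMD7 and PSMD13 were not analysed here.

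The proteasome degrades proteins marked with ubiquitin. Its 20S core is a barrel of stacked rings, with alpha subunits (PSMA) at the ends and beta subunits (PSMB) in the middle, of which PSMB5, PSMB6 and PSMB7 carry the proteolytic sites. In the immunoproteasome these are replaced by PSMB8, PSMB9 and PSMB10, which change the peptides produced for antigen presentation. The 19S cap (PSMC and PSMD) binds ubiquitin chains, removes them, unfolds the substrate with a ring of ATPases and feeds it into the core. PSME1 to PSME4 encode other activators of the core, and PSMG1 to PSMG4, PSMD5, PSMD9 and PSMD10 encode chaperones that help to assemble core and cap.

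Arrays of a group were alike, with Pearson's r across probe sets of at least 0.9968 within groups and between 0.9685 and 0.9696 across them. One control measure of RNA quality, the 3' minus the 5' probe sets of ACTB, stood at 0.89 ± 0.16 (SD, n = 3) with DMSO and at 0.61 ± 0.06 with SAHA. The groups did not overlap in it (two-sided exact permutation test, p = 0.1, the lowest value possible at this size, adjusted p = 0.2 over 6 control measures). Of the other control measures, the same difference for GAPDH went the opposite way without overlap, from 0.03 ± 0.02 to 0.06 ± 0.02, and so did the highest background probe set, from 10.34 ± 0.07 to 10.58 ± 0.12 (exact permutation p = 0.1 and adjusted p = 0.2 for each). The mean of the poly-A spike-ins overlapped between groups, at 6.67 ± 0.11 with DMSO and 6.51 ± 0.08 with SAHA (exact permutation p = 0.2, adjusted p = 0.24). Centring on these spike-ins, used below, carries that spread into every gene, beside a median SD within groups of 0.04 for the members. The ACTB difference moved with the treatment and so with every result below, and its part in them was not tested beyond a fit with it as a covariate, where 3 members were called higher and 15 lower. Over all genes that fit called 3368 higher and 3169 lower, beside 4457 and 4307 without the covariate. The cells carried the markers listed for this line, with mean log2 values of 11.80 to 13.99 for VIM, CD44, AXL, CAV1 and MSN. Of 6 luminal and receptor markers, PGR at 3.33 and CDH1 at 4.19 were lowest and EPCAM at 8.21 highest. Of 5 leukocyte markers 4 were measured, at 3.22 to 4.76, with PTPRC at 3.29. All values below are log2 values or log2 fold changes of SAHA over DMSO, and ± after a fold change is limma's moderated standard error with 3 arrays a group.

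Proteasome genes changed in both directions, by less than 2-fold in every member. In limma's test with Benjamini-Hochberg adjustment over all genes, 25 of 46 members (54.3%) had an adjusted p under 0.05, beside 48.3% of all genes, 7 higher (24.6% of all genes) and 18 lower (23.8% of all genes). The groups did not overlap in 37 members, beside 55.5% of all genes. Among the 2477 genes with a mean log2 value of at least 10, 71% were called, 31.7% higher and 39.3% lower, and the groups lay apart in 85%. Of the 36 members at that level 17 were called (47.2%), 6 higher and 11 lower, and the groups lay apart in 29. Only 1 of those 36 bright members, PSMB5, moved by more than 0.5 in size, a step that 29.3% of all bright genes passed. The median level of these members was 11.48, beside 10.90 for all bright genes, so the 2 sets are not fully matched. The second probe sets of PSMA1 and PSMD11, given below, also moved by more than 0.5, so that count depends on the probe set taken. None of the 46 reached 2-fold, which 10.4% of all genes did. Of the 10 members below a mean log2 value of 10, 8 were called, 1 higher and 7 lower, beside 48.3% of all genes. Of these 10, 7 moved by more than 0.5, which 26.9% of all genes did. Neither share is matched to their level, as the 8 called had means of 8.40 to 9.87. In a fit of only the 8605 genes with a mean of at least 7, most were called, 3345 higher and 3680 lower. The median over the members was -0.08, beside -0.01 over all genes. Centred on poly-A spike-ins, where the median of all genes moved up by 0.16, the members' median was 0.08 and 9 were higher and 9 lower. Over all genes 5829 were then higher and 2556 lower, beside 4457 and 4307 at the deposited scaling. Centred on ribosomal protein genes the members' median was 0.01, with 11 higher and 16 lower, beside 5601 and 3551 of all genes. Without the first SAHA array 4 members were higher and 18 lower, beside 4191 and 4084 of all genes.

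**Figure D1:**
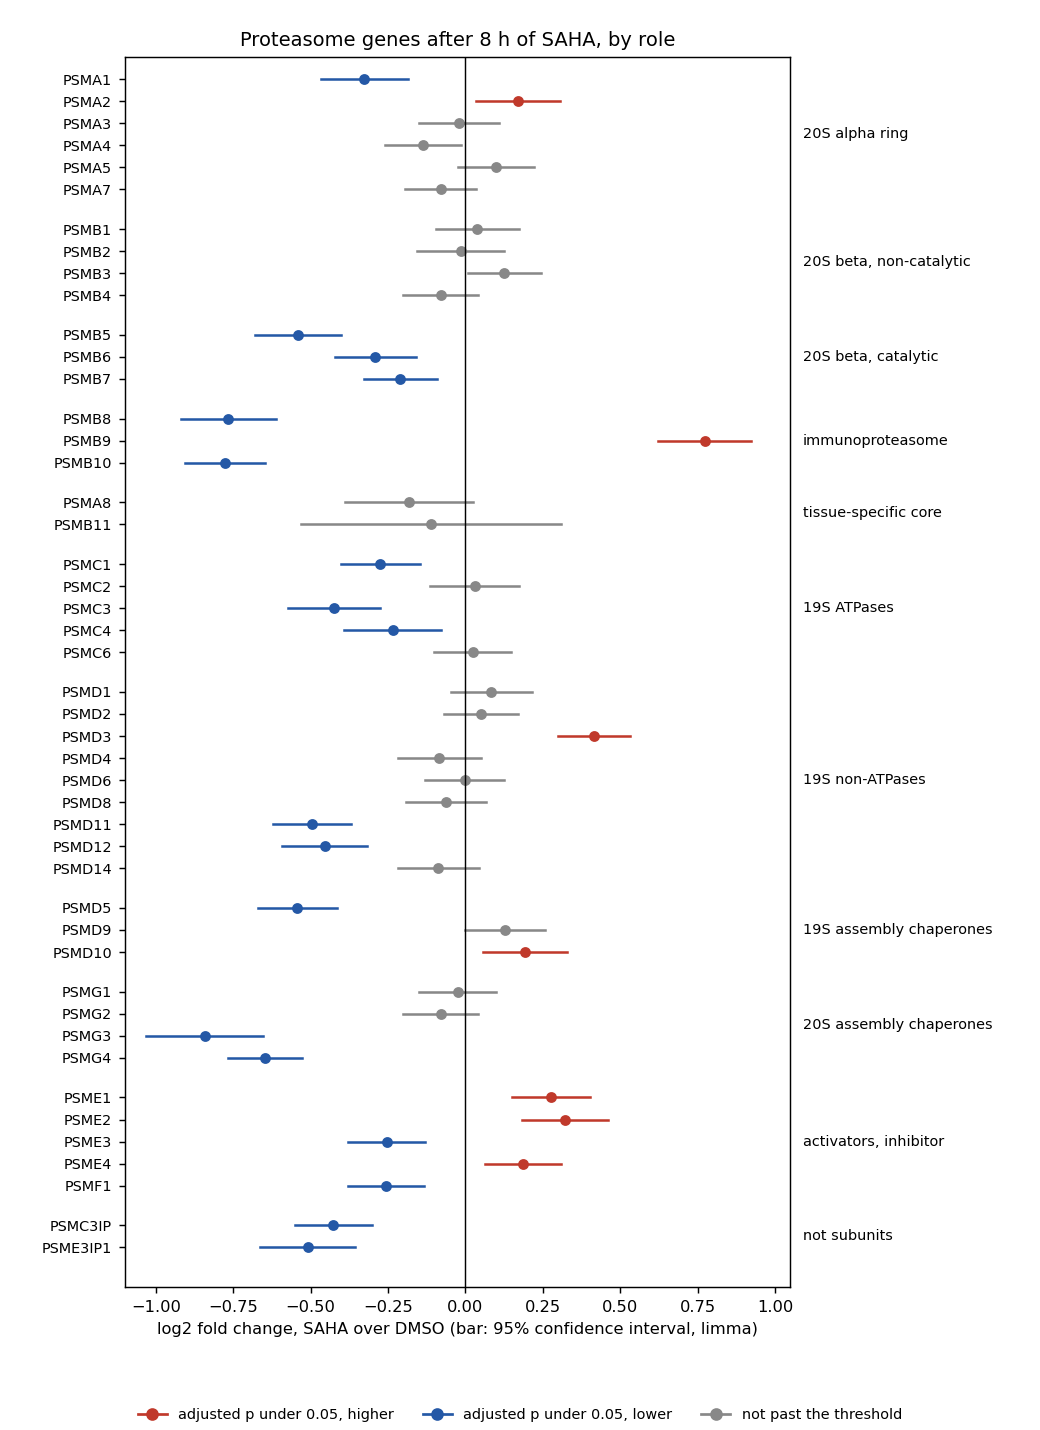
Log2 fold change of each of the 46 members (points) with limma's 95% confidence interval (bars), grouped by role, on a linear axis of log2 units. PSMB9 at 0.77 stands at the right and PSMG3, PSMB10 and PSMB8 at -0.84, -0.78 and -0.77 at the left, while most alpha and non-catalytic beta subunits lie near 0.

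**Figure D2:**
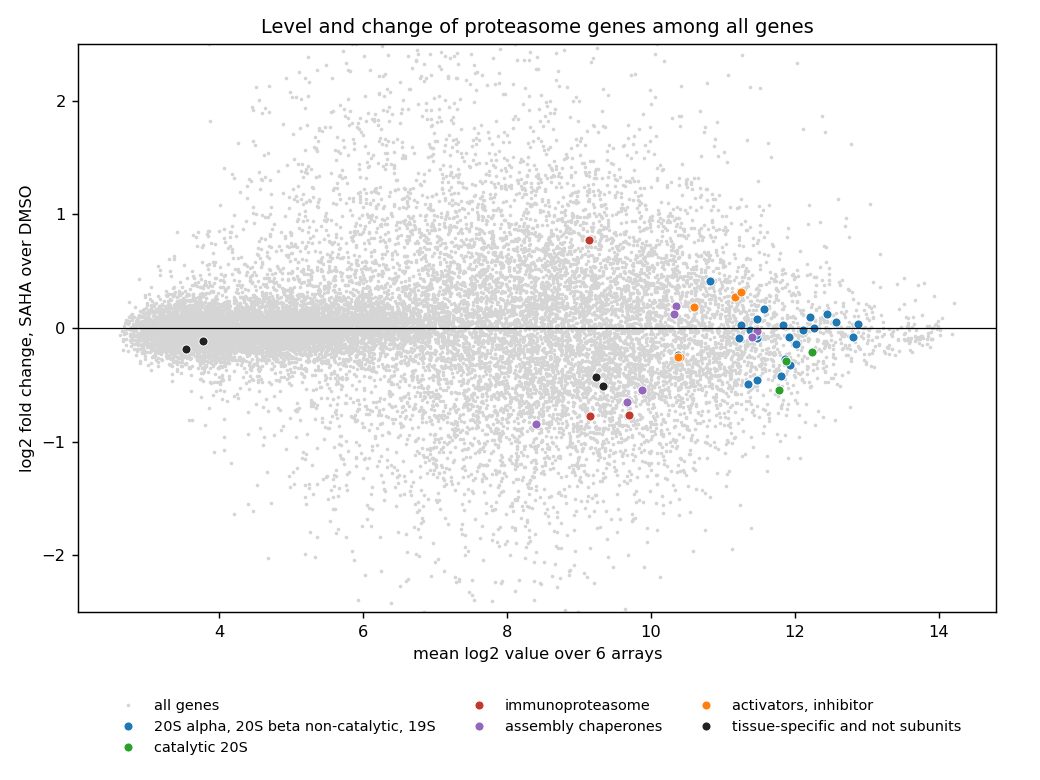
Log2 fold change (vertical axis) against the mean log2 value over 6 arrays (horizontal axis) for all 18132 genes (grey) and the members (colours by role), with 152 genes beyond the vertical range of 2.5 in size not drawn. Members above a level of 10 lie in a narrow band around 0, and the immunoproteasome subunits and most called assembly chaperones lie lower in level and farther from 0.

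Most structural subunits of the core were not called. Of the 10 alpha and non-catalytic beta subunits measured, 1 rose, 1 fell and 8 did not pass, with a median of -0.02. That is 20% called, beside 71% of all genes with a mean log2 value of at least 10, where all 10 lie. PSMA1 fell by 0.33 ± 0.06 (limma's adjusted p = 0.00239), from 12.13, 12.08 and 12.09 in the DMSO arrays to 11.85, 11.69 and 11.78 in the SAHA arrays, so the groups lay apart. Its second probe set gave -0.56. PSMA1 did not pass centred on poly-A spike-ins (-0.16) or with the ACTB covariate. PSMA2 stood at 11.55, 11.41 and 11.49 in DMSO and 11.66, 11.61 and 11.68 in SAHA arrays, a rise of 0.17 ± 0.06 (limma's adjusted p = 0.0432). This rise was close to the threshold. It did not pass without any one of DMSO arrays 2 and 3 or of the 3 SAHA arrays, and its second probe set gave 0.07.

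PSMA7 was at -0.08 ± 0.05, PSMA5 at 0.10 ± 0.05, PSMA3 at -0.02 ± 0.06 and PSMA4 at -0.14 ± 0.05 (limma's adjusted p = 0.0668). Among them the groups overlapped only in PSMA3. The other probe sets of PSMA4 gave -0.19 and -0.33, both called in the test over all probe sets, where 46.4% were called, 22.2% higher and 24.1% lower. The non-catalytic beta subunits PSMB1, PSMB2, PSMB3 and PSMB4 were at 0.04, -0.02, 0.13 and -0.08, and none passed. The 95% confidence interval of PSMB1 ran from -0.09 to 0.17 and that of PSMB2 from -0.16 to 0.13. A change of 1.2-fold (0.26) in either direction lies outside both, at the deposited scaling only. Centred on poly-A spike-ins PSMB1 was at 0.20 and PSMB2 at 0.15, nearer to 0.26.

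The 3 catalytic subunits of the constitutive core all fell, where 39.3% of all genes at a mean of at least 10 did. PSMB5 encodes the chymotrypsin-like subunit, which is the main target of bortezomib. Its log2 values were 11.99, 12.06 and 12.09 in DMSO and 11.58, 11.47 and 11.47 in SAHA arrays. That is a fall of 0.54 ± 0.06 (0.687-fold, limma's adjusted p = 0.000137), with every SAHA array below every DMSO array. All 5 of its probe sets were called lower, at -0.54 to -0.69.

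PSMB6, the caspase-like subunit, stood at 11.99, 11.998 and 12.07 in DMSO and 11.78, 11.72 and 11.69 in SAHA arrays, a fall of 0.29 ± 0.06 (limma's adjusted p = 0.00302). PSMB7, the trypsin-like subunit, stood at 12.34, 12.38 and 12.33 in DMSO and 12.16, 12.12 and 12.14 in SAHA arrays, a fall of 0.21 ± 0.05 (limma's adjusted p = 0.00959). In both genes the groups lay apart by more than the spread within them. Of the 5 probe sets of PSMB7, 4 were called lower. Centred on poly-A spike-ins PSMB6 (-0.13) and PSMB7 (-0.05) did not pass, and PSMB7 did not pass centred on ribosomal protein genes (-0.12) or with the ACTB covariate. PSMB5 was called in each of the 22 alternative settings, between -0.69 and -0.38.

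**Figure D3:**
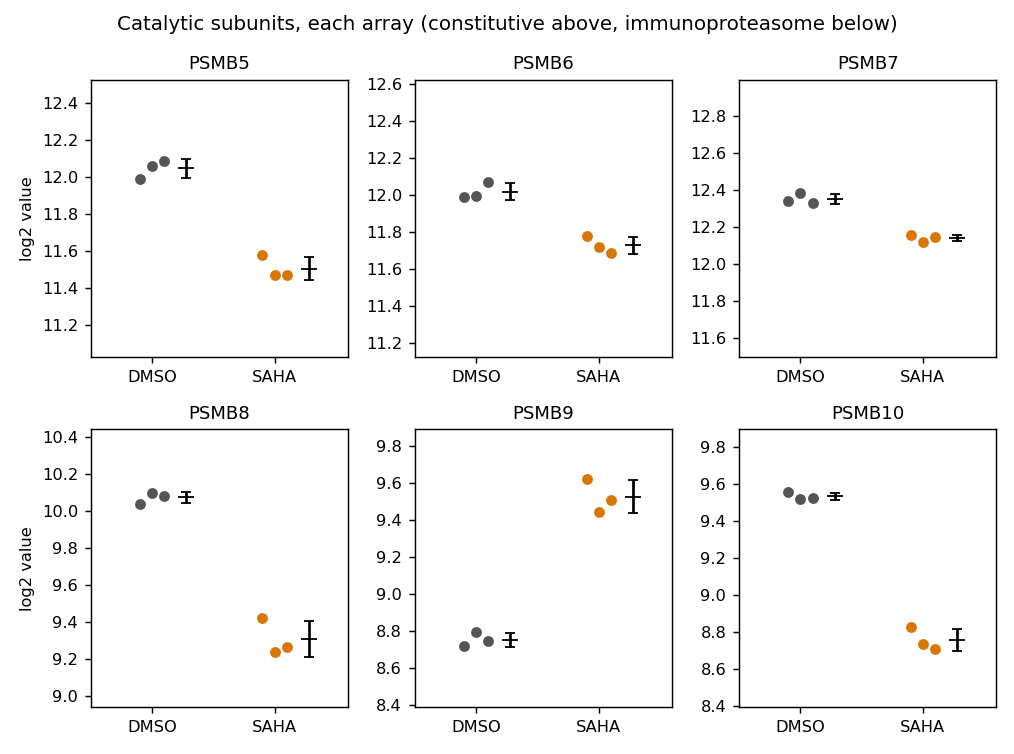
Log2 value of each catalytic subunit in each of the 3 DMSO and 3 SAHA arrays (points), with the mean and SD at the side. Every panel spans 1.5 log2 units around its own mean. The groups do not overlap in any of the 6 genes, and PSMB9 alone is higher in the SAHA arrays, at 9.45 to 9.62 against 8.72 to 8.79.

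The 3 catalytic subunits of the immunoproteasome were all called, beside 48.3% of all genes, and moved in opposite directions. Their mean log2 values were 9.14 to 9.69, so the share over all genes is not matched to their level. In a fit of only the 8605 genes with a mean of at least 7, 3345 were called higher and 3680 lower, so most genes were called there. PSMB8, which takes the place of PSMB5, stood at 10.04, 10.10 and 10.08 in DMSO and 9.42, 9.24 and 9.26 in SAHA arrays, a fall of 0.77 ± 0.07 (0.588-fold, limma's adjusted p = 3.4e-05). PSMB10, which takes the place of PSMB7, stood at 9.56, 9.52 and 9.53 in DMSO and 8.83, 8.74 and 8.71 in SAHA arrays, a fall of 0.78 ± 0.06 (0.584-fold, limma's adjusted p = 1.29e-05). PSMB9, which takes the place of PSMB6, stood at 8.72, 8.79 and 8.75 in DMSO and 9.62, 9.45 and 9.51 in SAHA arrays, a rise of 0.77 ± 0.06 (1.71-fold, limma's adjusted p = 2.8e-05). Every SAHA value lay below every DMSO value in PSMB8 and PSMB10 and above it in PSMB9. These calls were the same in each of the 22 alternative settings, with PSMB9 between 0.50 and 0.94, PSMB8 between -0.82 and -0.58 and PSMB10 between -0.81 and -0.61. The second probe set gave 0.64 for PSMB9 and -0.70 for PSMB8. All 3 probe sets of PSMB10 were called lower. Each of PSMB9 and PSMB8 had 1 more, dim probe set, which gave 0.09 and -0.29, and neither was called.

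Within each array the log2 value of an immunoproteasome subunit was set against that of the subunit it replaces, which shows unequal change and not the amounts of the 2 transcripts. PSMB9 minus PSMB6 went from -3.27 ± 0.06 with DMSO to -2.20 ± 0.07 with SAHA (SD, n = 3), a change of 1.06. PSMB10 minus PSMB7 went from -2.81 ± 0.04 to -3.38 ± 0.05, a change of -0.57. PSMB8 minus PSMB5 went from -1.98 ± 0.03 to -2.20 ± 0.04, a change of -0.22. In each of the 3 pairs the arrays of the groups lay apart (two-sided exact permutation p = 0.1, the smallest possible with 3 against 3, and 0.1 when adjusted over the 3 pairs). The change of PSMB8 against PSMB5 turned to 0.04 with the mean of each gene's probe sets, so its direction depends on the probe sets taken.

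PSMB8 and PSMB9 lie close together in the major histocompatibility complex, where RefSeq places TAP2, PSMB8, TAP1 and PSMB9 in this order among protein-coding genes. TAP1 and TAP2 encode the transporter that carries peptides into the endoplasmic reticulum. TAP1, next to PSMB9, rose by 0.76 ± 0.06 (limma's adjusted p = 2.36e-05), and TAP2, on the other side of PSMB8, fell by 0.80 ± 0.05 (limma's adjusted p = 9.44e-06). The 4 neighbours thus fell or rose in adjoining pairs of nearly equal size, TAP2 with PSMB8 and TAP1 with PSMB9. The starts of TAP1 and PSMB9 in RefSeq lie 487 bases apart and face away from each other. These neighbours were looked up by position, after the values of PSMB8 and PSMB9 were known.

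The promoter sequences of PSMB5, of the 3 immunoproteasome subunits and of PSME2, which encodes a subunit of an activator described below, are shown because genes of one complex moved in different directions. Each is the 250 bases before the outermost start in RefSeq (GRCh38.p14), 5′ to 3′ along the gene's own strand, with capitals marking matches to 5 motifs on either strand (N is any base). The motifs were TGANNNNGC, a loose form of the element bound by MAF proteins with NRF1 or NRF2, GAAA NN GAAA of interferon regulatory factors, TTCNNNGAA of STAT proteins, GGGA NNNN CC of NF-kB and CCAAT of NF-Y. The window of PSMB9 lies between its start and that of TAP1. No 2 matches overlap in these windows.
PSMB5, chr14:23035221-23035470, strand minus: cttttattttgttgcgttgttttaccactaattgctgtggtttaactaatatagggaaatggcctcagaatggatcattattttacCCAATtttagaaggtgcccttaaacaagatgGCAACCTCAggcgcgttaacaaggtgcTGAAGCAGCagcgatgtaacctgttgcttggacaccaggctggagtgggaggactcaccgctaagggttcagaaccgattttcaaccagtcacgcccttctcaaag
PSMB8, chr6:32844680-32844929, strand minus: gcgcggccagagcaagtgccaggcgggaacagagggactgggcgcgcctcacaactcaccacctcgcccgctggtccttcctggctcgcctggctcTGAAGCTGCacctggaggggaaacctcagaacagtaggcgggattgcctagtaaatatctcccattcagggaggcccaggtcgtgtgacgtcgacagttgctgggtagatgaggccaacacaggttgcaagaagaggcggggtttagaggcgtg
PSMB9, chr6:32853942-32854191, strand plus: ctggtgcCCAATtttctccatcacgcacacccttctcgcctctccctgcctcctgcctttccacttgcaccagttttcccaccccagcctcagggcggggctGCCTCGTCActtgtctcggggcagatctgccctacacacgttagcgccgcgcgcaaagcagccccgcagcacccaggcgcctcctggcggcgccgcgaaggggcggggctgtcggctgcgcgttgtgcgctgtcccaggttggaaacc
PSMB10, chr16:67936851-67937100, strand minus: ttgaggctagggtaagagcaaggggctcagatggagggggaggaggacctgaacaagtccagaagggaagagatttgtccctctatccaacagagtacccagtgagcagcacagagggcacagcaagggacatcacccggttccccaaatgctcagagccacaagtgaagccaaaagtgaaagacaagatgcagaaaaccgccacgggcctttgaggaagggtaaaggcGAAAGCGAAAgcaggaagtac
PSME2, chr14:24146611-24146860, strand minus: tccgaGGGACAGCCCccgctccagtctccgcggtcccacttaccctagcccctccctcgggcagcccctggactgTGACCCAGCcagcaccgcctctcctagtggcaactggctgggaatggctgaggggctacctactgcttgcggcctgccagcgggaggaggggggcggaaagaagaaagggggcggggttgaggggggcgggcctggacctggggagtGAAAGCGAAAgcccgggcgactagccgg

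The windows of PSMB10 and PSME2 both held the same match to the interferon element, GAAAGCGAAA, within 28 bases of the start, while PSMB10 fell and PSME2 rose. The windows of PSMB8 and PSMB9 held no match to it. In the windows shown, PSMB5 held 2 matches to TGANNNNGC, PSMB8, PSMB9 and PSME2 held 1 each, and PSMB10 held none. PSMB5 and PSMB8 each had another RefSeq window, not shown, with 1 match to TGANNNNGC. It also held 2 matches to TTCNNNGAA in PSMB5 and 1 in PSMB8. RefSeq windows were at hand for 40 of the 46 members, 49 windows in all since 8 members had several. TGANNNNGC was matched in 57.1% of these and in 35.2% of all 35116 windows, the interferon element in 10.2% and 3.02%, the NF-kB element in 22.4% and 22.6%, and CCAAT in 42.9% and 32%. TTCNNNGAA was matched in 7 of the 49 and in 6.57% of all. TGANNNNGC was matched in 5 of 7 windows of members called higher, 10 of 20 of members called lower and 13 of 22 of the rest. A match is only these letters in the window, not a site in use.

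Of 5 measured ATPases of the 19S cap, which unfold the substrate, 3 fell and 2 did not pass. That is 60% called, beside 71% of all genes with a mean log2 value of at least 10, where all 5 lie. PSMC3 fell by 0.43 ± 0.06 (limma's adjusted p = 0.000749), from 11.99, 11.97 and 12.11 in DMSO to 11.60, 11.66 and 11.54 in SAHA arrays. PSMC1 fell by 0.28 ± 0.05, from a mean of 11.998 ± 0.05 to 11.72 ± 0.03 (SD, n = 3), and PSMC4 by 0.24 ± 0.07, from 10.50 ± 0.08 to 10.27 ± 0.07. None of the 3 passed centred on poly-A spike-ins, at -0.26, -0.11 and -0.07 for PSMC3, PSMC1 and PSMC4. The call of PSMC4 was also lost without the third DMSO or the third SAHA array, at -0.19 in both cases, and centred on ribosomal protein genes. PSMC2 was at 0.03 ± 0.06 and PSMC6 at 0.02 ± 0.05, with overlapping groups.

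Of the 9 non-ATPase subunits measured, 1 rose, 2 fell and 6 did not pass. That is 33.3% called, beside 71% of all genes with a mean log2 value of at least 10, where all 9 lie. PSMD11 and PSMD12, scaffold subunits of the lid, fell. PSMD11 stood at 11.61, 11.65 and 11.54 in DMSO and 11.12, 11.11 and 11.10 in SAHA arrays, a fall of 0.49 ± 0.05 (0.71-fold, limma's adjusted p = 0.000131). PSMD12 fell by 0.45 ± 0.06 (limma's adjusted p = 0.000335), from 11.70 ± 0.07 to 11.25 ± 0.02. The second probe set of PSMD11 gave -0.58. Of the 4 probe sets of PSMD12, 3 were called lower and 1 was at -0.16 and not called.

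PSMD3, another scaffold subunit of the same lid, rose instead. It stood at 10.59, 10.64 and 10.62 in DMSO and 11.05, 11.03 and 11.03 in SAHA arrays, a rise of 0.42 ± 0.05 (1.33-fold, limma's adjusted p = 0.000226). Its 3 probe sets agreed within 0.41 to 0.43, and the call was the same in all 22 alternative settings, between 0.40 and 0.58. PSMD1 and PSMD2, the largest subunits of the base, were at 0.08 ± 0.06 and 0.05 ± 0.05. The ubiquitin receptor PSMD4 was at -0.08 ± 0.06 and the deubiquitinase PSMD14 at -0.09 ± 0.06. PSMD6 was at -0.0021 ± 0.05 and PSMD8 at -0.06 ± 0.06, and none of these 6 passed. The dimmest of 3 probe sets of PSMD8, at a mean of 7.29, gave -0.33 and was called lower. PSMD8 was also called with the mean of its probe sets.

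The assembly chaperones held the largest fall of all members. PSMG3 and PSMG4 form the heterodimer that helps to order the alpha ring. PSMG3 stood at 8.81, 8.85 and 8.80 in DMSO and 8.15, 7.89 and 7.90 in SAHA arrays, a fall of 0.84 ± 0.08 (0.558-fold, limma's adjusted p = 6.33e-05). PSMG4 stood at 9.997, 9.98 and 10.01 in DMSO and 9.35, 9.38 and 9.32 in SAHA arrays, a fall of 0.65 ± 0.05 (0.638-fold, limma's adjusted p = 2.13e-05). Both had every SAHA array below every DMSO array. Of the 6 probe sets of PSMG4, 5 were called lower, at -0.49 to -0.78, and PSMG3 had only 1. PSMG1 and PSMG2, the other heterodimer of alpha ring assembly, were at -0.025 ± 0.05 and -0.08 ± 0.05 and did not pass.

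The chaperones of the 19S base moved apart. PSMD5 stood at 10.14, 10.16 and 10.13 in DMSO and 9.66, 9.56 and 9.58 in SAHA arrays, a fall of 0.54 ± 0.05 (0.686-fold, limma's adjusted p = 8.29e-05). Its second probe set gave -0.61. PSMD10, which encodes gankyrin, stood at 10.29, 10.30 and 10.18 in DMSO and 10.49, 10.42 and 10.44 in SAHA arrays, a rise of 0.19 ± 0.06 (limma's adjusted p = 0.0272). That call was lost without the third DMSO array or any one SAHA array. PSMD9 was at 0.13 ± 0.06 and did not pass, while its dimmer second probe set gave 0.44 and was called.

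**Figure D4:**
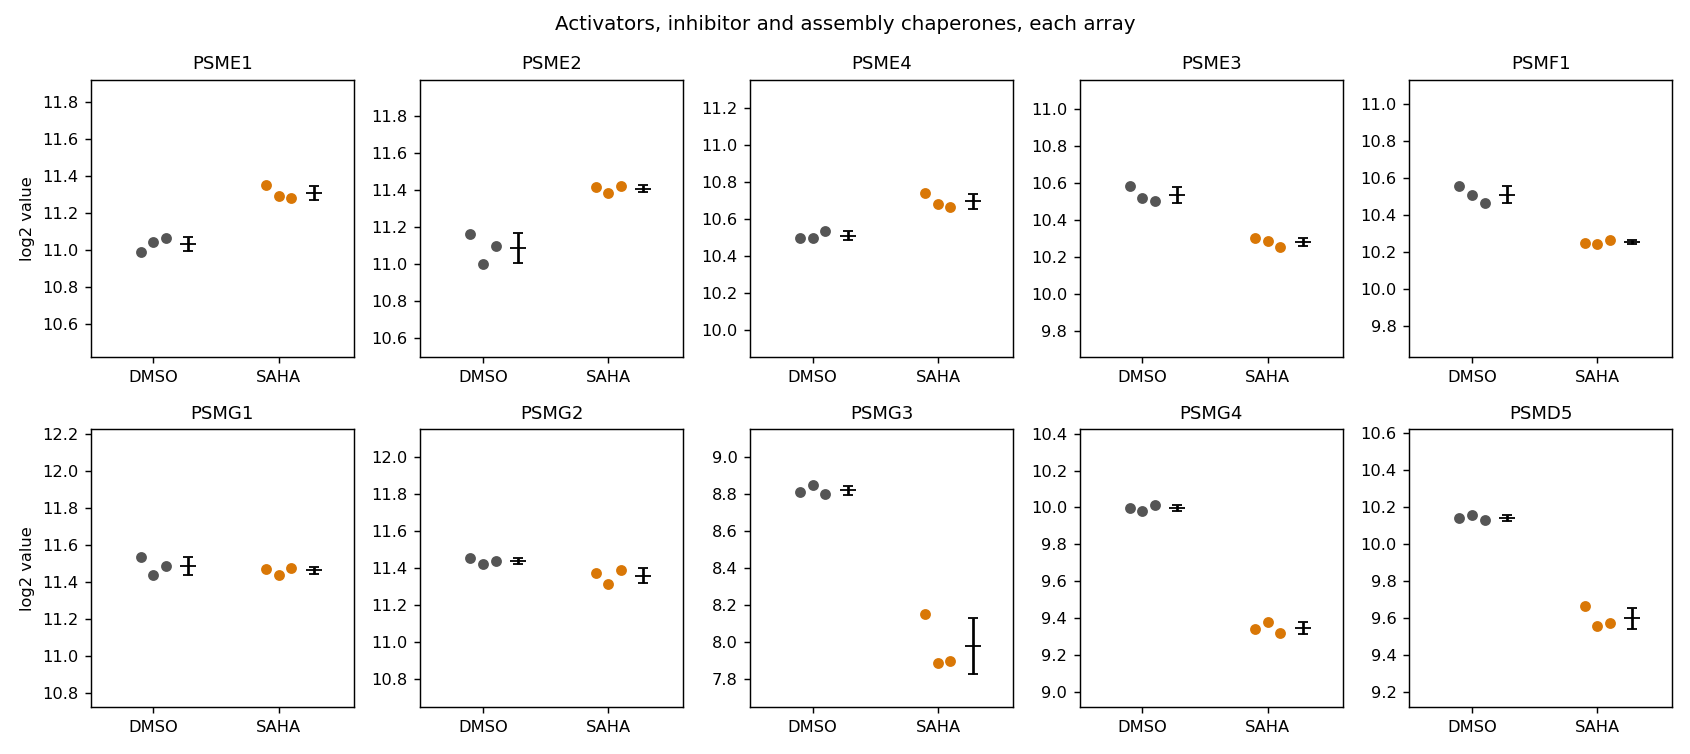
Log2 value of the activator and inhibitor genes, of the 20S assembly chaperones and of PSMD5 in each of the 3 DMSO and 3 SAHA arrays (points), with the mean and SD at the side. Every panel spans 1.5 log2 units around its own mean. PSME1, PSME2 and PSME4 are higher and PSME3, PSMF1, PSMG3, PSMG4 and PSMD5 lower in the SAHA arrays, while those of PSMG1 overlap with DMSO.

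All 5 activator and inhibitor genes were called, 3 higher and 2 lower, beside 71% of all genes with a mean log2 value of at least 10, where all 5 lie. PSME1 and PSME2 encode the 2 subunits of PA28alpha-beta, the activator linked to antigen processing, and both rose. PSME1 stood at 10.99, 11.04 and 11.06 in DMSO and 11.35, 11.29 and 11.28 in SAHA arrays, a rise of 0.28 ± 0.05 (limma's adjusted p = 0.00333). PSME2 stood at 11.16, 11.002 and 11.10 in DMSO and 11.41, 11.39 and 11.42 in SAHA arrays, a rise of 0.32 ± 0.06 (limma's adjusted p = 0.00252). All 3 probe sets of PSME1 were called higher, at 0.28 to 0.41. With the ACTB covariate PSME1 was at 0.23 and did not pass.

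PSME3, which encodes the nuclear activator PA28gamma, stood at 10.59, 10.52 and 10.50 in DMSO and 10.30, 10.29 and 10.26 in SAHA arrays, a fall of 0.25 ± 0.05 (limma's adjusted p = 0.00461). Its 3 probe sets were all called lower, at -0.25 to -0.54, while centred on poly-A spike-ins it was at -0.09 and did not pass, nor did it with the ACTB covariate. PSME4, which encodes the activator PA200, stood at 10.50, 10.50 and 10.54 in DMSO and 10.74, 10.68 and 10.67 in SAHA arrays, a rise of 0.19 ± 0.05 (limma's adjusted p = 0.0195). Of its 6 probe sets 3 were called higher, at 0.19 to 0.27, and the others were not called. The call of PSME4 was lost without the second DMSO or the first SAHA array, at 0.18 and 0.16.

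PSMF1 encodes PI31, an inhibitor of the core in vitro. It stood at 10.56, 10.51 and 10.46 in DMSO and 10.25, 10.25 and 10.27 in SAHA arrays, a fall of 0.26 ± 0.05 (limma's adjusted p = 0.00435) in its brightest probe set. None of its 5 other probe sets was called, and they ran from -0.17 to 0.12. The direction of PSMF1 therefore depends on the probe set.

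Among the 33 members with several probe sets, 27 had all of them on the same side of 0, and none had probe sets called in both directions. In limma's test over all probe sets, 46.4% were called. Every probe set was called in the same direction in PSMA1, PSMB5, PSMB10, PSMC1, PSMC4, PSMD3, PSMD5, PSMD10, PSMD11, PSME1, PSME3 and PSME3IP1. In PSMG4 5 of 6 were called, in PSMB7 4 of 5, in PSMD12 3 of 4, and in PSMB8 and PSMB9 2 of 3. In PSME4 3 of 6 were called, in PSMF1 1 of 6 and in PSMA2 0 of 2. Some members not called by their brightest probe set had others called. These were PSMA4 with 2 of 3 lower, PSMC2 and PSMD8 with 1 of 3 lower each, and PSMD9 with 1 of 2 higher. When the probe sets of each gene were averaged in place of taking the brightest, 8 members were higher and 19 lower. Over all genes 4470 were then higher and 4537 lower.

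**Figure D5:**
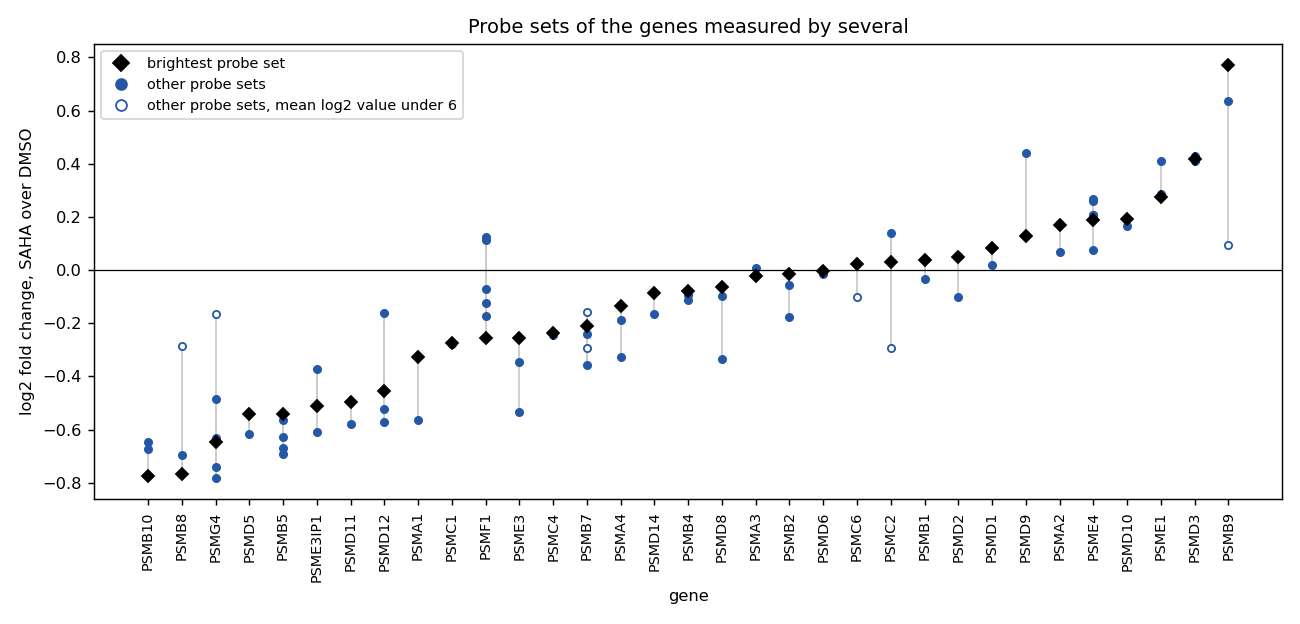
Log2 fold change of every probe set of the 33 members measured by more than 1, with the brightest probe set as a diamond, the others as dots, and those with a mean log2 value under 6 as open dots. The probe sets of PSMB5 and PSMB10 lie close together below 0 and those of PSMD3 above it, while those of PSMF1 lie on both sides.

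The tissue-specific subunits PSMA8 of the testis and PSMB11 of the thymus were near the floor of the scale, at means of 3.54 and 3.77, with no call and overlapping groups. Of the 2 matching genes that are not subunits, PSMC3IP, a partner of the recombinase DMC1, fell by 0.43 ± 0.05. PSME3IP1, a partner of PSME3, stood at 9.56, 9.65 and 9.54 in DMSO and 9.16, 9.06 and 8.996 in SAHA arrays, a fall of 0.51 ± 0.07 (limma's adjusted p = 0.000323). Without these 2 genes, 7 members were higher and 16 lower of 44, or 52.3% called beside 48.3% of all genes.

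Other proteins of the proteasome were read from a list of 13 genes, 12 of them measured, of which 2 rose and 2 fell, with a median of -0.01. That is 33.3% called, beside 48.3% of all genes and 71% of those with a mean log2 value of at least 10. ECPAS, the scaffold that ties core and cap together, fell by 1.52 ± 0.08, more than any member, and PAAF1, which binds the 19S ATPases, by 0.37 ± 0.06. UBLCP1, a phosphatase of the nuclear proteasome, rose by 0.61 ± 0.08 and ZFAND5, which stimulates the proteasome, by 0.28 ± 0.06. The core chaperone POMP at 0.01 ± 0.05, the ubiquitin receptor ADRM1 at -0.15 ± 0.05 and the deubiquitinases USP14 at 0.12 ± 0.06 and UCHL5 at -0.16 ± 0.06 did not pass.

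Of 10 measured genes that control proteasome genes, 4 rose and 4 fell, with a median of 0.10. That is 80% called, beside 48.3% of all genes and 71% of those with a mean log2 value of at least 10. NRF1, the main activator of proteasome genes when the proteasome is impaired, is encoded by NFE2L1, which fell by 0.35 ± 0.05 and is named here outside the rule for this list. NFE2L2, which encodes NRF2, fell by 0.41 ± 0.06, and KEAP1, which directs NRF2 to degradation, fell by 2.28 ± 0.06. The small MAF gene MAFG fell by 0.48 ± 0.06 and MAFF rose by 0.35 ± 0.06. DDI2, the protease that cuts NRF1, rose by 0.38 ± 0.06 and NGLY1, the enzyme that removes its sugars, by 0.25 ± 0.06. IRF1, an activator of immunoproteasome genes, rose by 0.22 ± 0.05.

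Of 11 measured genes of ubiquitin, its activation and its shuttling, 5 rose and 3 fell, with a median of 0.22. That is 72.7% called, near the 71% of all genes with a mean log2 value of at least 10, and beside 48.3% of all genes. Of the listed genes for shuttle proteins, which carry substrates to the cap, 3 fell, where 23.8% of all genes did. UBQLN2 fell by 0.92 ± 0.06, UBQLN4 by 0.72 ± 0.06 and RAD23B by 0.55 ± 0.05, while UBQLN1 was at -0.14 ± 0.06 and did not pass. The list held 3 genes for cofactors of the unfoldase VCP, and these rose, where 24.6% of all genes did. NSFL1C rose by 0.49 ± 0.05, UFD1 by 0.46 ± 0.06 and NPLOC4 by 0.25 ± 0.06. VCP itself was at -0.14 ± 0.05 and did not pass. The polyubiquitin gene UBB rose by 0.25 ± 0.05.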

How the data were processed

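Total RNA was labelled with a 3' in vitro transcription kit and hybridized to PrimeView arrays, per the labels' protocols. The authors deposited 1 log2 value for each probe set and array, made with RMA per the submitters' processing notes, whose version is not given in the sources used here. RMA equalizes the arrays' distributions, so a shift of most transcripts one way cannot be read from them. With 3 arrays a group, precision is limited by their number.

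The table held 49395 probe sets, 102 of them controls. Symbols came from the platform annotation, with 44988 probe sets naming 1 gene, 1832 several and 2473 none. Differences were tested two-sided with limma 3.58.1 (R 4.3.3, lmFit and eBayes) over all 18132 genes, with Benjamini-Hochberg adjustment at 0.05 and no filter or covariate, after a test on simulated data. Values in every array are given for the catalytic subunits, activators, PSMF1 and up to 8 called members each way whose groups do not overlap, with a few more. In the lists of other genes, the 3 of smallest p each way are named, with a few more beside them. Probe sets ending in _x_at or _s_at match similar transcripts. Alternatives are given in the closing section. Members, lists and alternatives were chosen with earlier results of these data known. Figures used matplotlib 3.10.9, and permutation tests scipy 1.17.1.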

Additional observations from a re-analysis of the deposited data

How the results depend on the processing

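Of the 25 called members, 10 kept their call and direction in all 22 alternative settings or in those that could give a value: PSMB9 and PSMD3 higher, and PSMB5, PSMB8, PSMB10, PSMD5, PSMD11, PSMG3, PSMG4 and PSME3IP1 lower. Of the 21 members not called, 11 stayed so and 10 passed in at least 1 setting.

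The 7 members higher became 3 with the ACTB difference as covariate, 4 at an adjusted p of 0.01, 4 with the replicate number as a block, 2 with treat at 1.2-fold and 11 centred on ribosomal protein genes. The 18 lower became 17 with the replicate block, 9 centred on poly-A spike-ins and 10 with treat. Over all genes the main fit called 4457 higher and 4307 lower. The ACTB covariate gave 3368 and 3169, an adjusted p of 0.01 gave 3709 and 3535, and the replicate block 4214 and 4077. Treat gave 2759 and 2531, centring on ribosomal protein genes 5601 and 3551, and on poly-A spike-ins 5829 and 2556. The labels do not say whether the replicate numbers are a pairing. Deviations of same-numbered arrays from their group means correlated at -0.13, -0.07 and -0.04. No shared effect of the number was seen, though 3 arrays a group cannot exclude a pairing. Leaving out 1 array gave 4 to 7 higher, fewest without the first SAHA array, and 17 to 18 lower. Over all genes it gave 4115 to 4332 higher and 3952 to 4154 lower. PSMF1 turned to 0.12 with its second brightest probe set, and PSMB8 minus PSMB5 to 0.036 with the mean of probe sets. The causes were not tested.

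The medians moved by more than the spread between arrays as follows. Centring moves every log2 fold change by the same amount, 0.16 on poly-A spike-ins and 0.089 on ribosomal protein genes. The medians under both centrings are therefore the main ones shifted by that amount and show nothing particular to a group. Centred on poly-A spike-ins they were 0.11 for the alpha ring, 0.18 for non-catalytic and -0.13 for catalytic beta subunits, -0.60 for the immunoproteasome, -0.071 for 19S ATPases, 0.10 for 19S non-ATPases, 0.29 for 19S and -0.20 for 20S chaperones, and 0.35 for activators and inhibitor. Centred on ribosomal protein genes they were 0.039, 0.10, -0.20, -0.68, -0.15, 0.026, 0.22, -0.27 and 0.28 in this order. With the ACTB covariate they were -0.075 for the alpha ring, -0.35 for catalytic subunits, -0.33 for ATPases, -0.11 for non-ATPases and 0.052 for 19S chaperones. With second brightest probe sets they were -0.090 for the alpha ring, -0.055 for non-catalytic and -0.40 for catalytic beta subunits, -0.65 for the immunoproteasome, -0.17 for ATPases and -0.74 for 20S chaperones. With the mean of probe sets they were -0.0398 for non-catalytic beta subunits, -0.58 for the immunoproteasome, 0.18 for 19S and -0.33 for 20S chaperones. Without _x_at and _s_at probe sets they were -0.044, -0.65 and -0.41 for non-catalytic beta subunits, the immunoproteasome and 20S chaperones, and 0.042 for activators and inhibitor. With quantile normalization once more they were -0.18 for ATPases, 0.18 for 19S and -0.32 for 20S chaperones. Leaving out 1 array put the non-catalytic beta median between -0.013 without the first DMSO array and 0.041 without the second.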

Other observations

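Position on the chromosome was looked up for other members beside PSMB8 and PSMB9, in RefSeq's order of protein-coding genes and after the values were known. Past PSMB9, the class II chaperone genes HLA-DMB and HLA-DMA rose by 1.85 ± 0.15 and 1.74 ± 0.11, while HLA-DOB, past TAP2, was at 0.0069 ± 0.11 and did not pass. Before PSMB5, which fell, AJUBA and C14orf93 fell by 1.15 ± 0.05 and 0.26 ± 0.07, and past it PSMB11 and CDH24 at -0.11 ± 0.18 and 0.06 ± 0.05 did not pass. Beside PSMB6, which fell, VMO1 and GLTPD2 at 0.14 ± 0.08 and -0.04 ± 0.06 did not pass, and PLD2 rose by 0.75 ± 0.09. PSMB10, which fell, lies between CTRL at 0.10 ± 0.09 and LCAT at 0.33 ± 0.12, which did not pass, and the next genes PSKH1 and SLC12A4 rose by 0.38 ± 0.05 and 0.46 ± 0.06. PSMB7 lies next to NEK6, a mitotic kinase gene that fell by 2.14 ± 0.06, while PSMB7 fell by 0.21, and its other neighbours LHX2, ADGRD2 and NR5A1 at 0.10, 0.07 and -0.18 did not pass. Before PSME1, which rose, DCAF11 and FITM1 at 0.14 and -0.0012 did not pass. PSME1 and PSME2 are separated by EMC9, which was at -0.12 ± 0.05 and did not pass, and past PSME2 the genes RNF31 of linear ubiquitin chains and IRF9 of interferon signalling rose by 0.30 ± 0.07 and 0.26 ± 0.08.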
